A study of Mus musculus with 6 samples.

Results

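The collagen chains are the genes whose symbol has the form Col, a number, a and a number in the annotation of the array, which keeps 44 genes of the 22180 that could be named. The rule uses the symbol and no measured value, although this gene family was picked for description with earlier results of these data known. Each gene is represented by 1 probe set listed with that gene alone, and for Col1a2, Col5a1 and Col6a1, which have more than 1, by whichever had the highest mean across the 6 arrays. The arrays were hybridised with total RNA of mouse mammary stem cells grown as organoids, which are 3-dimensional cultures of mammary epithelial cells. The Mll3-null group holds 3 arrays of cells in which MLL3, the enhancer histone methyltransferase encoded by Kmt2c, was deleted, and the WT group holds 3 arrays of wild-type cells. The stem cell lines were made by CRISPR, and no age, strain or treatment other than genotype is labelled. Each array is labelled a biological replicate, but the labels do not say whether replicates are separate lines or separate cultures of 1 line, and the p-values therefore reflect the spread of these samples alone.

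Collagens are secreted or membrane-bound proteins whose chains carry long glycine-rich repeats and wind into helical trimers. Some trimers pack into the banded fibrils of connective tissue, others into the sheet-like network of basement membranes, and others bridge cells to that network. In the mammary gland the basal epithelial cells sit on a basement membrane to which they contribute chains of their own, while the fibrillar collagens of the surrounding stroma come mostly from fibroblasts.

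Array values are log2 expression summaries, and a level of 1 probe set cannot be set against that of another, so each chain is compared with itself across arrays. The array medians lay between 4.35 and 4.40. Kmt2c itself averaged 6.11 ± 0.29 in Mll3-null cells and 6.01 ± 0.55 in WT cells (log2, SD, n = 3 each), so its mRNA level does not check the labels. Mll3-null replicate 3 differed from the other arrays in Krt14 and Krt17, genes named because their levels on it were known from earlier results. The basal keratin gene Krt14 was at 12.43, 12.25 and 6.65 in Mll3-null replicates 1, 2 and 3, against 12.41, 12.32 and 11.74 in WT replicates 1, 2 and 3, and Krt17 was at 10.24, 10.54 and 4.80 in the Mll3-null arrays, against 10.97, 9.61 and 9.69 in the WT arrays. Expressed genes of chromosome 10 had a median of 0.23 above their 6-array means in WT replicate 1, and those of chromosome 1 a median of 0.28 above in Mll3-null replicate 3. Of the defining markers of other cell types, 8 of 10 measured for fibroblasts, 6 of 6 for endothelial cells and 5 of 5 for immune cells had a mean under 6. Over the whole array only 8752 of 22180 named genes had a mean over 6, so a low mean is common. The mean level of a list ran from 3.92 to 4.78 on Mll3-null arrays and 4.42 to 4.79 on WT arrays for fibroblasts, from 3.81 to 3.95 and 3.80 to 3.95 for endothelial cells, and from 3.83 to 3.98 and 3.87 to 3.97 for immune cells. The fibroblast markers with the smallest p were Dpt, at 3.38 in Mll3-null and 3.54 in WT cells, and Fap, at 3.19 and 3.31. The 2 over the limit were Postn and Fbln1, both lowest on Mll3-null replicate 3. Postn was at 3.37 there, against 8.12 to 10.68 on the other arrays, and Fbln1 at 5.01, against 5.73 to 7.22. For endothelial cells the markers with the smallest p were Tek, at 3.79 in Mll3-null and 3.85 in WT cells, and Emcn, at 3.08 and 3.06. For immune cells they were Cd68, at 5.30 and 5.40, and Csf1r, at 4.19 and 4.14. The epithelial adhesion genes Cdh1 and Epcam averaged 10.60 and 10.83 in Mll3-null cells, against 10.93 and 10.85 in WT cells. The 8 luminal markers, all over 6, had a mean level from 8.85 to 9.25 on Mll3-null arrays and 8.87 to 9.36 on WT arrays. In Mll3-null cells 5 of their means were higher and 3 lower, where 55.1% of genes over 6 had a lower mean. Their median difference was 0.07. The luminal markers with the smallest p, both on the lower side, were Cldn4, which averaged 7.23 in Mll3-null and 8.80 in WT cells, and Krt7, at 9.96 and 10.72. The 5 on the higher side were Elf5, at 8.04 in Mll3-null and 7.01 in WT cells, Gata3, Krt18, Krt8 and Krt19 (named after their values were seen). On Mll3-null replicate 3 Elf5 (9.02), Gata3 (8.73), Krt18 (11.44) and Krt8 (10.57) were at their highest of the 6 arrays. Krt19, Krt7, Cldn3 and Cldn4 were not.

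A chain was called expressed where its mean log2 value over the 6 arrays was over 6, which 15 of the 44 chains reached. Without detection calls, a mean under this limit does not show that a chain is absent. Since levels of different probe sets cannot be compared, the limit is a working cut. The words expressed and dim describe the probe set value and do not rank the RNA amounts of different chains. Just inside this limit lay Col5a3 at 6.01, with Col4a2 next at 6.73, and just outside it lay Col16a1 at 5.91 and Col27a1 at 5.59. Of the other 29 chains 10 had a mean between 5 and 6, 16 between 4 and 5 and 3 under 4. The expressed chains were Col4a1, Col4a2, Col4a5 and Col4a6 of the basement membrane network, Col7a1, Col18a1, Col17a1, Col6a1, Col6a2, Col11a1, Col5a3, Col8a1, Col9a1, Col9a2 and Col9a3. The main chains of stromal fibrils were not among them, with Col1a1 at a mean of 5.55 in Mll3-null and 5.53 in WT cells, Col1a2 at 4.57 and 4.40, and Col3a1 at 4.56 and 4.46.

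**Figure D1:**
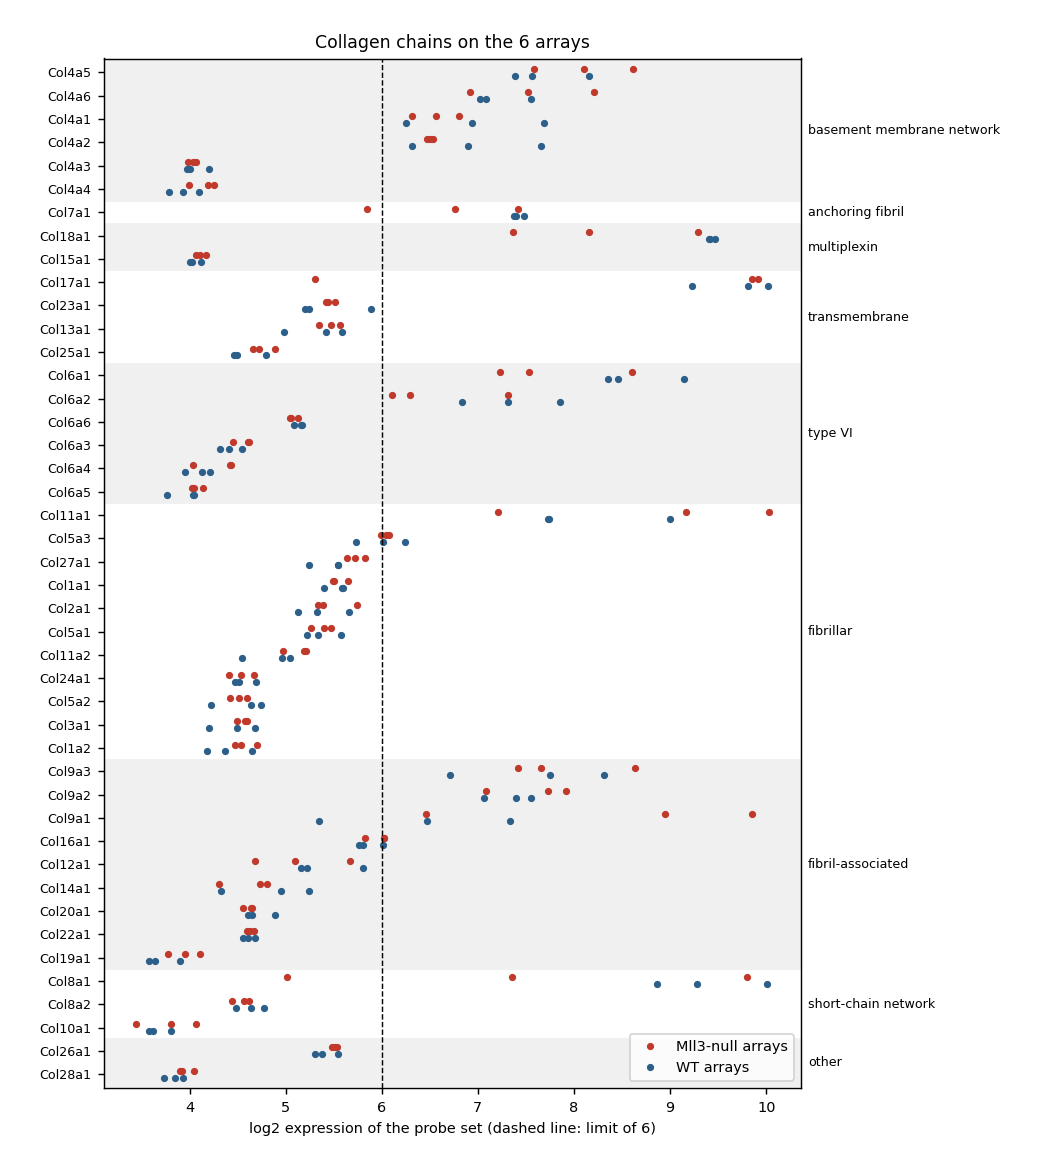
Each row is a collagen chain, grouped by class, and each point is 1 array on the log2 expression scale, with Mll3-null arrays in red above WT arrays in blue. The dashed line marks the limit of 6, and 15 of the 44 chains have a mean above it.

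No collagen chain passed the test between Mll3-null and WT cells. With limma and Benjamini-Hochberg adjustment over the 22180 genes, 0 of 44 chains had an adjusted p under 0.05, and their smallest adjusted p was 0.84. The background was the same, with 0% of all genes called (unadjusted, 4.93% of all genes and 1 of 44 chains, Col18a1, had p under 0.05). The groups did not overlap for 2 of 44 chains, Col18a1 and Col27a1, where 10.7% of all genes had groups that did not overlap. In Mll3-null cells the mean was higher for 27 and lower for 17 of the 44 chains, where 48.5% of all genes had a lower mean. The median difference was 0.08 log2 units, against 0.01 over all genes. Among the 15 expressed chains the mean was higher for 7 and lower for 8, where 55.1% of the 8752 expressed genes had a lower mean. Their median difference was -0.40, against -0.02 over the expressed genes. That median was 0.01 without Mll3-null replicate 3 and -0.75 without WT replicate 2. In bulk RNA, fewer cells of a type and less RNA per cell cannot be told apart.

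The expressed chains varied widely between arrays, also within a group. Their range over the 6 arrays had a median of 1.73 log2 units, from 0.51 for Col5a3 to 5.0 for Col8a1, and it exceeded 1 unit for 13 of 15, where 17.4% of all expressed genes had such a range. The median range over all expressed genes was 0.48 and over the 29 chains not expressed 0.43. Which expressed chains lay outside the WT range differed between the Mll3-null arrays. Mll3-null replicate 1 lay inside the WT range for 12 of the 15 expressed chains and below it for Col4a6, Col11a1 and Col18a1, where 27.6% of expressed genes lay below that range and 19.6% above it. Mll3-null replicate 2 lay above the WT range for Col9a1, Col9a2, Col9a3 and Col11a1 and below it for Col6a1, Col6a2, Col7a1, Col8a1 and Col18a1, where 25.9% of expressed genes lay above and 33.9% below. Mll3-null replicate 3 lay above it for Col4a5, Col4a6, Col9a1, Col9a2 and Col11a1 and below it for Col6a1, Col6a2, Col7a1, Col8a1, Col17a1 and Col18a1, where 35.9% of expressed genes lay above and 37% below.

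**Figure D2:**
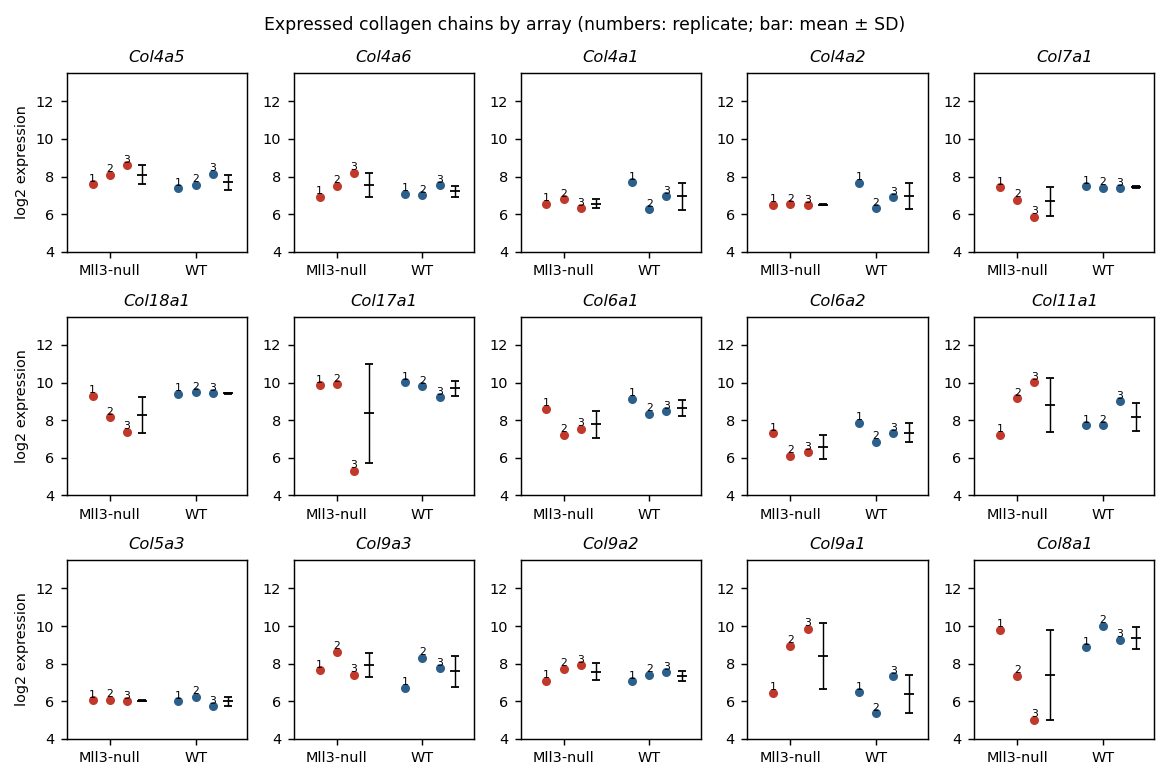
Each panel is an expressed chain, with Mll3-null arrays in red on the left and WT arrays in blue on the right, all on 1 log2 scale; numbers are replicates and bars are the mean ± SD of 3 arrays. Col17a1 is low on Mll3-null replicate 3 alone (5.31), while Col18a1 is close to 9.43 on all WT arrays and between 7.37 and 9.29 on the Mll3-null arrays.

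The basement membrane network is built of type IV collagen. Its genes lie in pairs on opposite strands, and both pairs Col4a1 with Col4a2 and Col4a6 with Col4a5 were expressed. The windows from 250 bases before to 50 bases after each start site are shown because the members of each pair start next to each other, on opposite strands. Capitals mark the motifs CCAAT and GGGCGG on either strand. The sequences are those of RefSeq for GRCm38.p6, each written 5′ to 3′ along the strand of its gene.
Col4a1 (chr8:11312777-11313076, minus strand): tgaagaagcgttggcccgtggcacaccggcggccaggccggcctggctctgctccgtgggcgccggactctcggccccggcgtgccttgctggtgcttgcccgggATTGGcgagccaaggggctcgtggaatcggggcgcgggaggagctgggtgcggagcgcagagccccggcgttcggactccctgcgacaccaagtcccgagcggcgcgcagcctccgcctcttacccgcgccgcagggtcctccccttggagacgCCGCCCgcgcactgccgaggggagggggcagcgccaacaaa
Col4a2 (chr8:11312555-11312854, plus strand): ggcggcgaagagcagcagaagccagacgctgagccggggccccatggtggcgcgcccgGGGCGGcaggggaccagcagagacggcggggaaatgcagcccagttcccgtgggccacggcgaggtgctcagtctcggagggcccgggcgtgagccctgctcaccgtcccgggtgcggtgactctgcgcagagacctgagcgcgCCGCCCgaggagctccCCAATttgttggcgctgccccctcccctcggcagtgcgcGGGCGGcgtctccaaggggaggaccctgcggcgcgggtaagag
Col4a6 (chrX:141474027-141474326, minus strand): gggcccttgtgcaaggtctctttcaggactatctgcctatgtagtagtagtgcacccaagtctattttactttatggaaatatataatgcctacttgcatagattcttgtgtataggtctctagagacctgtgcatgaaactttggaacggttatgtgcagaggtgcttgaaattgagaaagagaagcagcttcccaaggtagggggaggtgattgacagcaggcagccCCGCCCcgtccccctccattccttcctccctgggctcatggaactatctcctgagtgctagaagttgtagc
Col4a5 (chrX:141475169-141475468, plus strand): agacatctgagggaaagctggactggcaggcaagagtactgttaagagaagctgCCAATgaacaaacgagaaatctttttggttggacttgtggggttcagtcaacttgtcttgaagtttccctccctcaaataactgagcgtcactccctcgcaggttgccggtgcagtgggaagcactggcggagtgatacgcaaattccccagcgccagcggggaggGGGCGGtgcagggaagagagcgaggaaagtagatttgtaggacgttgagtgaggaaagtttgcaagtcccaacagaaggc
The annotated start sites of Col4a1 and Col4a2 lie 21 bases apart on opposite strands, so their windows overlap. Their transcripts, as annotated, also overlap over these first bases. Those of Col4a6 and Col4a5 lie 1343 bases apart, so that their windows do not meet. The Col4a1 and Col4a2 windows hold 74.0% and 73.7% G and C, against 48.3% and 52.7% for Col4a6 and Col4a5. CCAAT is in the Col4a1, Col4a2 and Col4a5 windows and not in the Col4a6 window, and GGGCGG is in all 4. The GGGCGG match of the Col4a1 window and the last one of the Col4a2 window are the same site, read on opposite strands. Over the 32851 mouse windows CCAAT was in 37.4% and GGGCGG in 35.7%. Of the 44 chains 35 had a window, 38 windows in all, and CCAAT was in 34.2% of them and GGGCGG in 60.5%. A match describes letters in these windows and shows no binding.

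Col4a1 and Col4a2, which form the common type IV trimer of basement membranes, followed each other closely from array to array. Col4a1 was at 6.56, 6.80 and 6.31 in Mll3-null replicates 1, 2 and 3, against 7.69, 6.25 and 6.94 in WT replicates 1, 2 and 3. Col4a2 was at 6.50, 6.53 and 6.47 in the Mll3-null arrays, against 7.66, 6.31 and 6.90 in the WT arrays. For both chains WT replicate 1 was the highest and WT replicate 2 the lowest of all 6 arrays, so the Mll3-null arrays lay inside the WT range. As deviations from their own 6-array means the 2 chains were never more than 0.25 log2 units apart. The difference was -0.40 ± 0.35 for Col4a1 and -0.46 ± 0.32 for Col4a2 (log2, Mll3-null minus WT, moderated SE; adjusted p = 0.85 and 0.84, limma). Without WT replicate 1 these were -0.04 and -0.10.

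Col4a5 and Col4a6, the X-linked pair whose products form a trimer found in some epithelial basement membranes, also ran in parallel, but with another order of arrays. Col4a5 was at 7.58, 8.10 and 8.61 in Mll3-null replicates 1, 2 and 3, against 7.39, 7.56 and 8.16 in WT replicates 1, 2 and 3. Col4a6 was at 6.92, 7.52 and 8.21 in the Mll3-null arrays, against 7.08, 7.02 and 7.55 in the WT arrays. Mll3-null replicate 3 was the highest array for both and WT replicate 3 the highest of its group, and the groups overlapped. The pair stayed within 0.20 log2 units of each other on every array, again as deviations. The differences were 0.39 ± 0.30 for Col4a5 and 0.34 ± 0.33 for Col4a6 (adjusted p = 0.84 and 0.86, limma), and 0.14 and 0.01 without Mll3-null replicate 3. Col4a3 and Col4a4, the chains that join Col4a5 in the glomerular basement membrane of the kidney, were both at a mean of 4.04, with array values from 3.79 to 4.26. Over the 6 chains of the network the median difference was 0.09, with 3 means higher and 3 lower in Mll3-null cells, and over the 4 expressed ones it was -0.03. With 1 array left out these medians ran from 0.00 to 0.14 and from -0.26 to 0.12, so the median over the expressed chains changed sign.

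Col18a1 encodes the multiplexin collagen XVIII, a heparan sulfate proteoglycan of basement membranes and the precursor of endostatin. It was at 9.29, 8.16 and 7.37 in Mll3-null replicates 1, 2 and 3, against 9.40, 9.47 and 9.42 in WT replicates 1, 2 and 3. Replicate 1 lay only slightly below the WT arrays. Col18a1 was the 1 expressed chain of 15 whose Mll3-null arrays all lay below the WT arrays, as 7.51% of expressed genes did. The difference of -1.16 ± 0.44 (95% interval -2.23 to -0.10) is 2.24-fold and did not pass the correction (adjusted p = 0.84, limma). The difference was -0.71 when Mll3-null replicate 3 was left out and -1.67 when replicate 1 was (leaving out Mll3-null replicate 1, adjusted p = 0.14, limma). The other multiplexin gene, Col15a1, was dim, at 4.12 ± 0.05 in Mll3-null and 4.05 ± 0.06 in WT cells (SD, n = 3 each).

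Col7a1 encodes type VII collagen, which forms the anchoring fibrils that tie the basement membrane to the stroma. It was at 7.42, 6.76 and 5.85 in Mll3-null replicates 1, 2 and 3, against 7.48, 7.40 and 7.38 in WT replicates 1, 2 and 3. Replicate 1 was within the WT range, and replicates 2 and 3 lay below a WT group whose SD was 0.05. The difference was -0.74 ± 0.37 (adjusted p = 0.84, limma), and -0.33 without Mll3-null replicate 3.

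Of the transmembrane collagens, which span the cell membrane once as single-pass proteins, Col17a1 alone was expressed. It encodes the hemidesmosome protein collagen XVII, which basal cells use to hold on to the basement membrane. Col17a1 was at 9.85, 9.91 and 5.31 in Mll3-null replicates 1, 2 and 3, against 10.02, 9.81 and 9.23 in WT replicates 1, 2 and 3. Mll3-null replicates 1 and 2 lay inside the WT range and replicate 3 far below it. The difference of -1.33 ± 1.21 (adjusted p = 0.85, limma) was 0.20 without Mll3-null replicate 3, so its direction came from that array. The same array had the low basal keratins given above, and Trp63, the basal transcription factor p63, at 5.02, where the other 5 arrays lay between 7.86 and 8.84 (a gene chosen once its values were known). The mean level of the 7 measured basal markers was 5.69 on that array and 7.87 and 8.20 on the other Mll3-null arrays, against 7.49 to 7.84 on the WT arrays. Not every basal marker was low there, since the oxytocin receptor gene Oxtr was at 8.35 on that array and between 4.74 and 6.54 on the others. Mylk, a dim gene that averaged 4.57 in Mll3-null and 4.88 in WT cells, was at 4.48 there, against 4.43 to 5.46 on the others. Myh11 was at 5.08 there, against 5.13 to 5.29 on the others. Acta2 was low there, at 5.47, against 7.05 to 10.25 on the others. The part of these markers in the level of Col17a1 was not tested. The other transmembrane chains, Col13a1, Col23a1 and Col25a1, had means of 5.46, 5.46 and 4.76 in Mll3-null cells and 5.33, 5.44 and 4.58 in WT cells, and the median over all 4 was 0.07, or -0.07 without WT replicate 3.

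Type VI collagen forms beaded filaments near the cell surface, and its chains Col6a1 and Col6a2 are made by neighbouring genes on chromosome 10. Col6a1 was at 8.60, 7.23 and 7.53 in Mll3-null replicates 1, 2 and 3, against 9.14, 8.35 and 8.46 in WT replicates 1, 2 and 3. Col6a2 was at 7.31, 6.11 and 6.29 in the Mll3-null arrays, against 7.85, 6.84 and 7.31 in the WT arrays. Mll3-null replicates 2 and 3 lay below all WT arrays for both chains, and replicate 1 lay within the WT range. As deviations from their means the chains were within 0.25 log2 units of each other on every array. The differences were -0.86 ± 0.39 for Col6a1 and -0.76 ± 0.38 for Col6a2 (adjusted p = 0.84 for both, limma), or 1.82-fold and 1.70-fold. These 2 chains and Col18a1 are on chromosome 10, whose expressed genes stood higher in WT replicate 1. With the median deviation of each chromosome taken off every array the differences were -0.75 for Col6a1, -0.65 for Col6a2 and -1.05 for Col18a1. The second probe set of Col6a1, a dim one at a mean of 4.30, differed by -0.48.

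Type VI filaments are known to need another chain beside these, most often that of Col6a3. Col6a3 was dim, at 4.56 ± 0.09 in Mll3-null and 4.43 ± 0.12 in WT cells. The alternative chains Col6a4, Col6a5 and Col6a6, neighbours on chromosome 9, had means of 4.29, 4.07 and 5.08 in Mll3-null cells, against 4.10, 3.96 and 5.14 in WT cells. The median difference over all 6 type VI chains was 0.03 (-0.01 without WT replicate 1). Over the 2 expressed ones it was -0.81, and from -1.20 to -0.56 with 1 array left out.

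Of the 11 fibrillar chains 2 were expressed. Col11a1 encodes a chain of type XI collagen, a minor fibrillar collagen best known from cartilage, where it starts and limits fibril growth. It was at 7.21, 9.17 and 10.03 in Mll3-null replicates 1, 2 and 3, against 7.73, 7.74 and 9.0 in WT replicates 1, 2 and 3. Replicate 1 was the lowest of all arrays and replicates 2 and 3 the highest, with WT replicate 3 close below replicate 2, so the groups overlapped. The difference was 0.65 ± 0.73 (95% interval -1.12 to 2.41; adjusted p = 0.87, limma), and 0.03 without Mll3-null replicate 3. Col5a3, a minor chain of type V collagen, was at 6.04, 6.08 and 5.99 in the Mll3-null arrays, against 6.01, 6.24 and 5.73 in the WT arrays, a difference of 0.04 ± 0.14 (95% interval -0.29 to 0.38).

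The partners that type XI collagen has in cartilage did not reach the limit of 6. Col2a1, the main cartilage fibril chain, was at 5.49 ± 0.22 in Mll3-null and 5.38 ± 0.27 in WT cells, and Col11a2 at 5.13 ± 0.13 and 4.85 ± 0.27 (SD, n = 3 each). Col5a1, the main chain of type V collagen, was at 5.38 in both groups. Col27a1 was the other chain whose groups did not overlap, at 5.64, 5.72 and 5.83 in Mll3-null replicates 1, 2 and 3, against 5.24, 5.55 and 5.55 in WT replicates 1, 2 and 3, with a difference of 0.28 ± 0.12 (adjusted p = 0.84, limma). Col5a2 was at a mean of 4.51 in Mll3-null and 4.53 in WT cells and Col24a1 at 4.54 and 4.56. The median difference over the fibrillar class was 0.10, with 8 means higher and 3 lower, and it was -0.02 without WT replicate 3.

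All 3 chains of type IX collagen, which coats fibrils of type II and type XI collagen in cartilage, were expressed. Col9a1 had the widest positive difference of any chain. It was at 6.46, 8.95 and 9.85 in Mll3-null replicates 1, 2 and 3, against 6.47, 5.35 and 7.33 in WT replicates 1, 2 and 3. Mll3-null replicates 2 and 3 lay more than 1 log2 unit above every WT array, while replicate 1 lay within the WT range. The difference of 2.03 ± 0.91 (95% interval -0.16 to 4.23) is 4.10-fold and did not pass the correction (adjusted p = 0.84, limma). Leaving out Mll3-null replicate 3 gave 1.32, and leaving out replicate 1 gave 3.01. Col9a1 lies on chromosome 1, whose expressed genes stood higher in Mll3-null replicate 3, and with chromosome medians taken off the difference was 1.87.

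The other type IX chains did not share this pattern to the same degree. Col9a2 was at 7.08, 7.73 and 7.92 in Mll3-null replicates 1, 2 and 3, against 7.06, 7.40 and 7.55 in WT replicates 1, 2 and 3, with its order of arrays close to that of Col9a1 over a range of 0.86. Col9a3 was at 7.66, 8.63 and 7.42 in the Mll3-null arrays, against 6.71, 8.31 and 7.75 in the WT arrays, so its highest array in each group was replicate 2. The differences were 0.24 ± 0.24 for Col9a2 and 0.32 ± 0.47 for Col9a3 (adjusted p = 0.86 and 0.90, limma), and that of Col9a3 was -0.12 without WT replicate 1 and -0.05 without Mll3-null replicate 2. As deviations Col9a2 and Col9a3 came up to 0.79 log2 units apart, on Mll3-null replicate 3. The remaining fibril-associated chains, Col12a1, Col14a1, Col16a1, Col19a1, Col20a1 and Col22a1, had means from 3.83 to 5.91 and differences from -0.24 to 0.24. Among them Col12a1 averaged 5.15 in Mll3-null and 5.40 in WT cells and Col16a1 5.96 and 5.86. The median difference over the 9 chains of this class was 0.10.

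Col8a1, a short-chain collagen known from the corneal endothelium and the vessel wall, had the widest negative difference and the widest range of any chain. It was at 9.80, 7.35 and 5.01 in Mll3-null replicates 1, 2 and 3, against 8.86, 10.01 and 9.28 in WT replicates 1, 2 and 3. Replicate 1 lay inside the WT range and replicates 2 and 3 far below it. The difference of -2.0 ± 1.11 (95% interval -4.67 to 0.68) is 3.99-fold and did not pass the correction (adjusted p = 0.84, limma). Leaving out Mll3-null replicate 3 gave -0.81, and leaving out replicate 1 gave -3.20. Its partner Col8a2 was dim and level, at 4.54 ± 0.10 in Mll3-null and 4.63 ± 0.15 in WT cells, and Col10a1, a marker of hypertrophic cartilage, was at 3.78 and 3.67. Of the remaining chains, Col26a1 was at 5.51 in Mll3-null and 5.41 in WT cells and Col28a1 at 3.95 and 3.83.

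**Figure D3:**
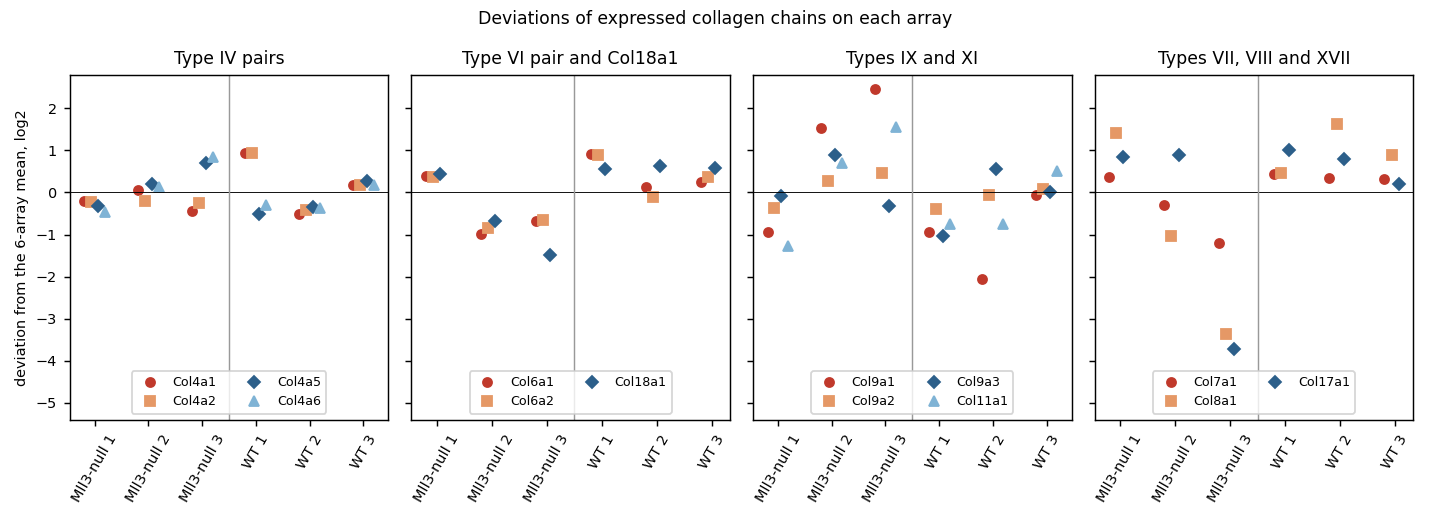
Points are log2 deviations of expressed chains from their own mean over the 6 arrays, with the 3 Mll3-null arrays left of the 3 WT arrays. Col4a1 and Col4a2 stay within 0.25 of each other and Col4a5 and Col4a6 within 0.20, while Col8a1 and Col17a1 reach -3.37 and -3.71 on Mll3-null replicate 3.

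**Figure D4:**
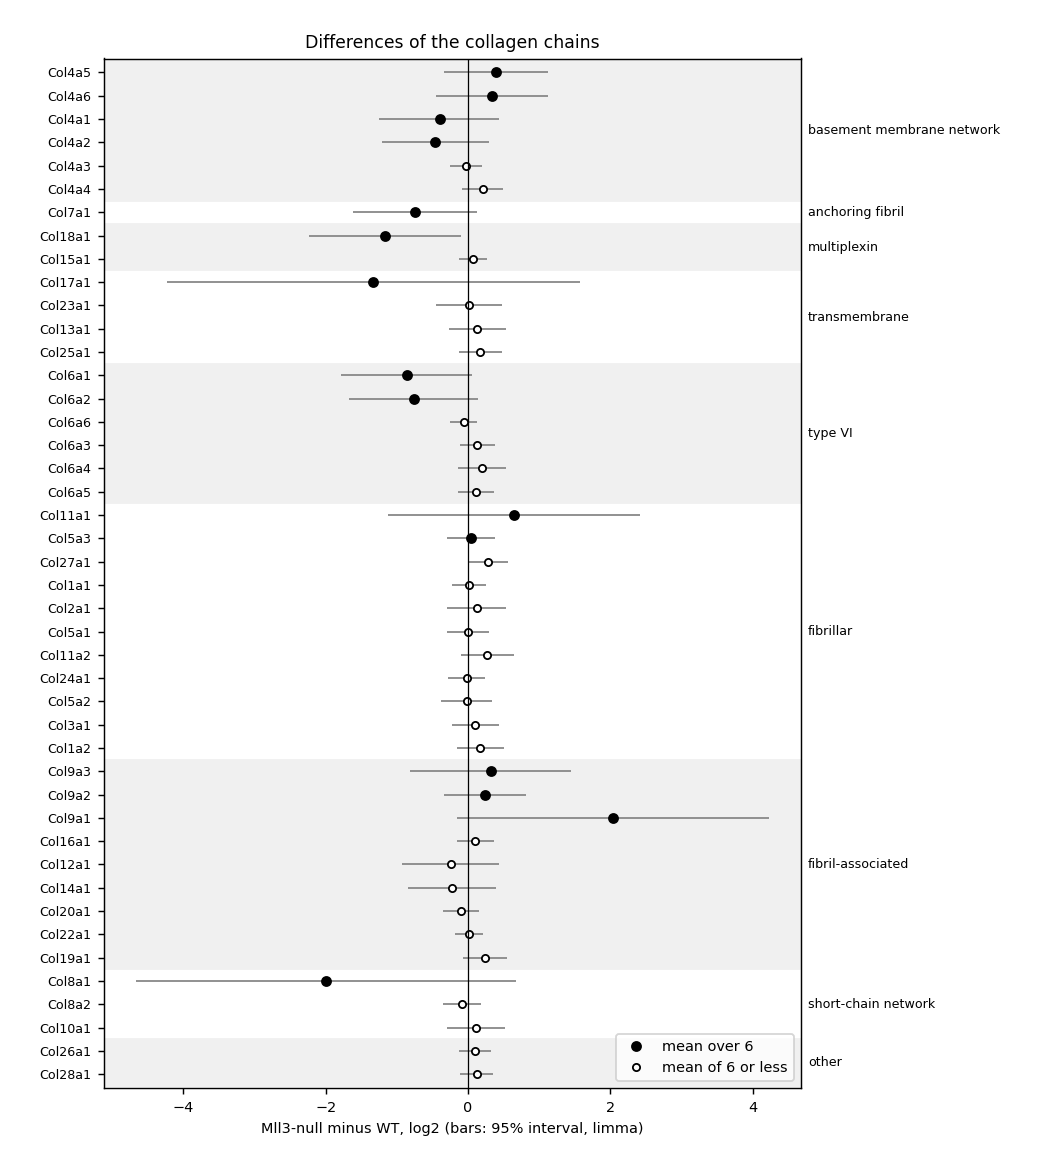
Points are differences in log2 expression, Mll3-null minus WT, for the 44 collagen chains by class, with the 95% interval of limma, and filled points are the 15 expressed chains. Of the 15 the intervals of 14 include 0, that of Col18a1 does not (-2.23 to -0.10), and no chain passes the correction over all genes.

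Group means at least 2-fold apart were seen for 4 of the 15 expressed chains, where 2.39% of all expressed genes had such means. These were Col9a1 on the higher side and Col8a1, Col17a1 and Col18a1 on the lower side. With 3 arrays a group and the wide spread of these chains, differences of this size could not be told from the spread between replicates.

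The genes that make and modify collagen did not pass the test either. Over all genes limma called 0%, and 4.93% had an unadjusted p under 0.05. Of 30 measured genes of the list of collagen processing, which holds hydroxylases, chaperones, propeptide proteases and crosslinking enzymes, 0 were called in either direction with limma (0 also at an unadjusted p under 0.05). The mean was higher for 12 and lower for 18 of them in Mll3-null cells, where 48.5% of all genes and 55.1% of expressed genes had a lower mean. Their median difference was -0.03, and 21 of the 30 had a mean over 6. The smallest p belonged to Crtap, a partner of the prolyl 3-hydroxylase complex, at 9.24, 9.04 and 8.75 in Mll3-null replicates 1, 2 and 3, against 9.25, 9.37 and 9.39 in WT replicates 1, 2 and 3, a difference of -0.32 ± 0.14. Pcolce2, an enhancer of propeptide cleavage, was at 5.99, 5.68 and 6.41 in the Mll3-null arrays, against 7.07, 6.72 and 6.14 in the WT arrays, a difference of -0.62 ± 0.28. Serpinh1, the collagen chaperone HSP47, averaged 9.04 ± 0.14 in Mll3-null and 9.10 ± 0.19 in WT cells (named after its values were seen).

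Among the 10 measured collagen receptor genes 0 were called with limma (1 at an unadjusted p under 0.05), where 0% and 4.93% of all genes were. Of their means 6 were higher and 4 lower, where 48.5% of all genes had a lower mean, and the median difference was 0.02. Itga2, the collagen-binding integrin subunit alpha 2, was at 10.01, 8.52 and 8.31 in Mll3-null replicates 1, 2 and 3, against 10.39, 10.04 and 9.70 in WT replicates 1, 2 and 3, a difference of -1.09 ± 0.45. Mll3-null replicates 2 and 3 lay below all WT arrays for Itga2, as they did for Col6a1, Col6a2, Col7a1, Col8a1 and Col18a1. Each array taken alone, 33.9% and 37% of expressed genes lay below the WT range on Mll3-null replicates 2 and 3. Ddr2, a discoidin domain receptor of fibrillar collagen, was at 3.79, 5.80 and 4.41 in the Mll3-null arrays, against 3.72, 3.80 and 3.89 in the WT arrays, a difference of 0.86 ± 0.47. Its relative Ddr1, the epithelial form, averaged 8.86 in Mll3-null and 8.85 in WT cells (named after its values were seen).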

How the data were processed

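Total RNA of 6 samples was labelled with biotin and hybridised to Affymetrix arrays, per the labels' protocols. The deposited values were made with Affymetrix Expression Console, per the submitters' processing notes; no version, normalization method or genome build is stated there. The authors deposited 1 value per probe set and array, taken here as log2 because the values run from 1.72 to 13.56. Array medians are nearly equal, which hides any change in the total RNA of a cell, and detection calls were not part of the values. Of 41345 probe sets 23521 are listed with 1 gene symbol, which left 22180 genes. Those with several symbols were left out.

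The difference between genotypes was tested two-sided with limma 3.58.1 (R 4.3.3), with no other term in the model, Benjamini-Hochberg adjustment over all genes and a threshold of 0.05, and the code was tested on simulated data. Replicate numbers were not used as a block, since no label ties them and deviations of same-numbered arrays correlated at 0.03, 0.08 and 0.31 across genes. All expressed chains were named with each array. Chains with a mean between 5 and 6 were named with group means, and from each other list the 2 genes with the smallest p. Collagen classes and gene lists come from general knowledge. The members and lists were chosen with earlier results of these data known. Alternatives covered arrays left out, normalization, probe set choice, array weights, the spread model, filters on dim genes and the replicate block, and, chosen after seeing the data, removal of chromosome medians. Chromosomes were taken from the GRCm38.p6 annotation. The number of arrays limits the precision.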

Additional observations from a re-analysis of the deposited data

How the results depend on the processing

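No gene, and so no collagen chain, passed an adjusted p of 0.05 under any alternative run, and the smallest adjusted p of an expressed chain was 0.14 (limma, Col18a1 without Mll3-null replicate 1). Of 240 values of the 15 expressed chains under an alternative, 230 kept their direction and 10 reversed, all 10 with arrays left out. The replicate block, the spread model and the filters on dim genes cannot change a difference. The mean of probe sets can change only that of Col6a1. Many of the 230 were therefore fixed in advance, and their number does not measure stability. With 1 array left out the difference ran from -2.10 to 0.20 for Col17a1, from -0.12 to 0.67 for Col9a3 and from -0.09 to 0.17 for Col5a3. Without WT replicate 1 and Mll3-null replicate 3 together the differences were -0.02 for Col4a5, -0.06 for Col4a6, 0.09 for Col4a1, -0.07 for Col9a2, -0.18 for Col11a1 and 0.36 for Col17a1. Leaving out 1 array took these as far as 0.65 for Col4a5 and for Col4a6, -0.76 for Col4a1, 0.49 for Col9a2 and 1.44 for Col11a1. Without both arrays the median was -0.01 over all chains and -0.07 over the expressed ones, and 0 chains and 830 genes had an unadjusted p under 0.05. With 1 array left out the medians ran from -0.01 to 0.12 over all chains and from -0.75 to 0.01 over the expressed ones, and the median of the expressed ones was 0.02 with a limit of 5 in place of 6. Unadjusted p under 0.05 was reached by 716 genes when Mll3-null replicate 2 was left out and 2742 when replicate 1 was. Leaving out an array gave 0 to 10 of the 44 chains. There were 10 without Mll3-null replicate 1 and 6 without WT replicate 2, where 2742 and 925 of the 22180 genes reached it. There were 0 without Mll3-null replicate 2, Mll3-null replicate 3 or WT replicate 3, where 716, 858 and 845 genes did. With array weights 2504 genes and 6 chains reached it, and with the mean of probe sets 1103 genes and 2 chains. With only genes over 4 or over 6 on the log2 scale 721 and 448 genes did. With the replicate block 1290 genes and 6 chains reached it and none passed the correction. Not every array correlated best with its own number. The filtered fits hold fewer genes. That over 6 holds 8752, of which 526 had an unadjusted p under 0.05 in the main limma fit. The cause of these changes was not tested.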

Other observations

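Some collagen-modifying enzymes varied between arrays in ways the chains also did (genes named after their values were seen, none past the correction with limma). Loxl3, a lysyl oxidase that crosslinks collagen, was at 9.52, 8.23 and 6.43 in Mll3-null replicates 1, 2 and 3, against 8.77, 9.40 and 9.59 in WT replicates 1, 2 and 3, a difference of -1.19 ± 0.73 (log2, SE). As for Col8a1, replicate 1 was inside the WT range and replicate 3 was the lowest array. P3h2, a prolyl 3-hydroxylase known to act on type IV collagen, was at 9.35, 10.50 and 10.85 in the Mll3-null arrays, against 9.54, 9.43 and 9.97 in the WT arrays, a difference of 0.59 ± 0.39. Plod1, a lysyl hydroxylase, was at 7.0, 7.74 and 8.55 in the Mll3-null arrays, against 6.90, 6.57 and 7.48 in the WT arrays, a difference of 0.78 ± 0.41. For both enzymes Mll3-null replicates 2 and 3 lay above every WT array, as for Col9a1 and Col11a1. Each array taken alone, 25.9% and 35.9% of expressed genes lay above the WT range on Mll3-null replicates 2 and 3. Postn, which encodes the collagen-binding matrix protein periostin, was at 9.58, 9.18 and 3.37 in the Mll3-null arrays, against 9.04, 10.68 and 8.12 in the WT arrays, and like Col17a1 it was low on Mll3-null replicate 3 alone.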
